A study of Saccharomyces cerevisiae with 12 samples.

Results

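The homozygotes obtained from an evolved strain of baker's yeast, 8 in number, were compared with that evolved strain during growth on xylose. The 10 arrays, of 12 in the series, comprised 1 for each of homozygotes 1 to 8 and 2 for the evolved strain (n = 2). The 2 arrays of the parental strain entered no test and are given beside the results. Every culture was started at an optical density (660 nm) of 0.1 in medium with 4% xylose, shaken at 200 rpm at 35 °C and harvested at 25 h. Cells were washed, and total RNA was hybridised to one-colour Affymetrix arrays as biotin-labelled cRNA. The labels name the strains without giving genotype, ploidy or mating type. They call the evolved arrays biological replicates and give each homozygote a number that names a strain. The SD of homozygotes is therefore a spread between different strains, each represented by 1 culture.

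The values are signals in linear intensity units, 1 for each probe set and array, compared on the log2 scale. Of 5449 S. cerevisiae genes with a single-gene probe set, 5347 exceeded background on at least 2 of the 10 arrays and were tested. Each of these probe sets names 1 gene, but 75 of the genes tested were read from one of a shared kind. The background of an array was read from its S. pombe (fission yeast) probes and lay between 18.7 and 19.6 units. A gene is called one-sided here when its 8 homozygote signals all lay above, or all lay below, both evolved signals. The gap of such a gene is the distance between the nearest arrays of the groups. One-sidedness and the fit by limma use the same signals, so neither supports the other.

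A homozygote carries the same allele on both copies at a locus, so alleles carried singly by its source strain are either fixed or lost in it. Yeast represses genes for respiration and for the use of non-fermentable carbon while glucose is plentiful. Ribosome biogenesis genes encode the nucleolar factors that process rRNA, and their transcripts are known to follow growth rate. Genes of sulfate reduction and methionine synthesis are activated together by Met4 with its partners Cbf1, Met28, Met31 and Met32.

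Several arrays stood apart. The evolved arrays differed from each other by a median absolute log2 difference of 0.06, with 1 gene at least 2-fold apart, a smaller distance than in each of the 28 homozygote pairs (0.08 to 0.18). Pairs of 1 evolved and 1 homozygote array differed by 0.105 to 0.201. Their median of 0.126 was close to the 0.125 of homozygote pairs. They had 4 to 89 genes at least 2-fold apart, and homozygote pairs 0 to 91. The values do not show whether the evolved pair spreads as independent cultures would. If it spreads less, SEs and p-values here are too small, and a position outside all 8 homozygotes is reached by ordering alone in many genes. Homozygote 6 lay farthest from the mean of the evolved arrays, with a median absolute log2 difference of 0.19 and 86 genes at least 2-fold away. Homozygote 5 followed with 0.16 and 49 genes, and homozygote 7 with 0.14 and 25 genes. Homozygotes 1 and 8 lay nearest, with 0.10 and 0.11. The mean log2 signal of 17 control probe sets for rRNA was 11.60 ± 0.04 in evolved arrays (SD, n = 2) and 11.65 ± 0.12 in homozygotes (n = 8). The difference of 0.05 had a two-sided exact permutation p = 0.778, where the smallest possible is 0.0222. Homozygotes 5 and 6 were at 11.89 and 11.81 and the other homozygotes between 11.56 and 11.64. The part of this difference in the results was not tested, and counts without these arrays are given in the closing section.

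The summed signals of markers for mating type and haploid cells overlapped between the groups. Of 16 genes on the array listed as haploid-specific, 14 exceeded background on all 10 arrays. The summed signal of all 16 was 2858 to 2949 in evolved arrays and 2666 to 3181 in homozygotes. In evolved arrays TEC1 (748.5 to 753.6), STE12 (532.9 to 543.4) and STE20 (511.2 to 571.4) made up most of that sum. The list holds genes that diploid cells also express, so the sum does not measure ploidy. The summed signal of 7 genes specific to a cells was 658 to 662 in evolved arrays and 612 to 749 in homozygotes. Of 5 genes specific to alpha cells, MF(ALPHA)1, which encodes the main alpha pheromone, stayed under background on all 10 arrays. SAG1, the alpha agglutinin, named because it makes up most of that list's signal, was bright at 6039 and 6006 in evolved arrays and 5696 to 6746 in homozygotes. The other alpha-specific genes did not share that level. In evolved arrays STE3 read 45.7 to 53.5, AFB1 40.2 to 56.7 and MF(ALPHA)2 31.5 to 36. None of the 15 tested genes of the haploid-specific list, 7 a-specific and 4 alpha-specific genes passed the test. One-sided among them were STE18 and HMRA1, both higher. They are 13.3% of the haploid-specific list, where 9.26% of all genes tested were one-sided higher. HMRA1 encodes a1, which diploid cells also express, so it does not mark haploid cells.

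Of the 5347 genes tested, limma called 1, or 0.0187%, at an adjusted p under 0.05: URA1, which fell in the homozygotes. At an unadjusted p under 0.05 there were 1176 genes, 511 higher and 665 lower, and the smallest adjusted p after that of URA1 was 0.093. In all, 131 genes had an adjusted p under 0.1. One-sided genes numbered 1178, or 22% of those tested: 495 were higher in the homozygotes (9.26%) and 683 lower (12.8%). How much of this share ordering alone would reach, with evolved arrays so close to each other, was not tested. Of the one-sided genes, 7 were read from a shared probe set. Most one-sided differences were small. Their median absolute log2 difference was 0.25, against 0.11 over all genes, and their median gap was 1.04-fold. A difference of means of at least 1.5-fold was reached by 20 one-sided genes that were higher (0.374%) and 31 that were lower (0.58%). At 2-fold, 5 were higher and 0 lower. The median log2 difference of all genes was -0.01.

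**Figure D1:**
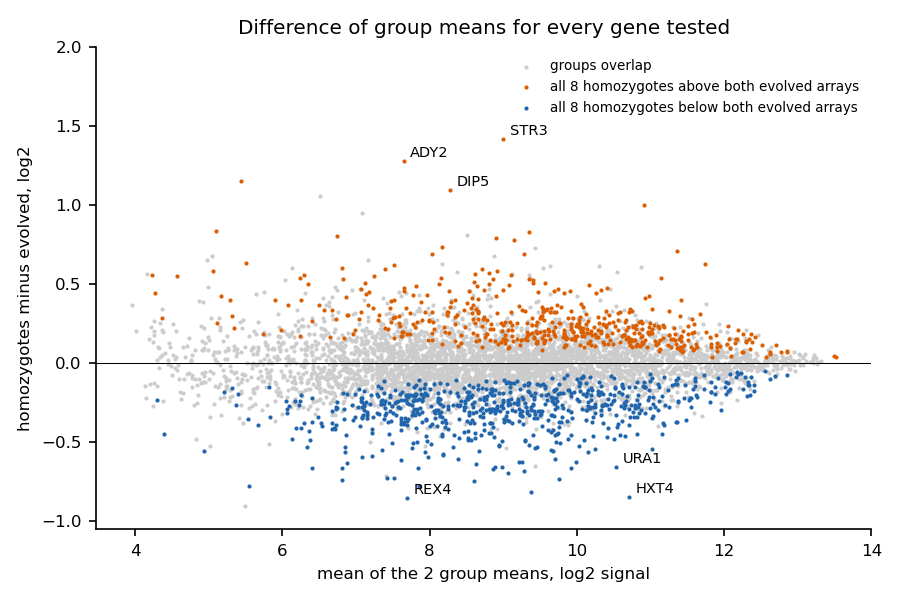
Difference of group means (homozygotes minus evolved arrays, log2) against mean log2 signal for the 5347 genes tested. Orange points are the 495 genes with all 8 homozygotes above both evolved arrays and blue points the 683 with all below; most one-sided genes lie close to 0, and no one-sided gene is lower by 2-fold or more.

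The edge of this rule was narrow. IDH1, a subunit of isocitrate dehydrogenase, was just inside it, with a homozygote minimum of 2361.3 against an upper evolved signal of 2361.1. KAE1 was just outside it, its lowest homozygote and its upper evolved array both reading 1364.2. Among lower genes POP5 was just inside, both its highest homozygote and its lower evolved array reading 257.5 after rounding. MCM2, a subunit of the replicative helicase, was just outside, with 251.0 on both sides.

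URA1 encodes dihydroorotate dehydrogenase, which makes orotate in the synthesis of pyrimidines. Its signal was 1795 and 1926 in the evolved arrays. The homozygotes ran from 1079 (homozygote 8) to 1322 (homozygote 6), with a median of 1163, and did not overlap the evolved arrays. The mean was 1860 ± 93 in evolved arrays (SD, n = 2) and 1182 ± 79 in homozygotes (n = 8). This is a 1.58-fold fall, a log2 change of -0.66 ± 0.08 (SE, limma adjusted p = 0.00583). The parental arrays read 1302 and 1988, of which the first lies within the range of the homozygotes and the second above the evolved signals. The call was lost when only 1 evolved array was kept (adjusted p = 0.148 without evolved array 1 and 0.612 without evolved array 2), when the evolved arrays were averaged as 1 sample (0.296) and when the parental arrays shared the fit (0.137). Under the 4 settings that lost the call the change stayed between -0.71 and -0.61.

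The list of pyrimidine synthesis and uptake had 13 tested genes, of which 8 (61.5%) were one-sided lower and 1 (7.69%) one-sided higher, against 12.8% and 9.26% of all genes. Its median log2 difference was -0.18, and the medians of single homozygotes ran from -0.28 (homozygote 6) to -0.07. URA1 was the only member called. PPR1, the transcriptional activator of several URA genes, read 102 and 92.5 in the evolved arrays and 54.4 to 84.9, with a median of 70.9, in the homozygotes (log2 difference -0.53 ± 0.15, adjusted p = 0.113). FUI1, the uridine permease, read 3158 and 2863 against 2047 to 2839 (median 2297), a difference of -0.37 ± 0.10. In both genes homozygote 8 was the highest of the homozygotes.

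The other members of this list that were one-sided are named because their values were seen. URA7, a CTP synthase, read 2137 and 2213 in evolved arrays and 1547 to 2036 in homozygotes. FUR1, which salvages uracil, read 1399 and 1445 against 1001 to 1367. URA4, dihydroorotase, read 1050 and 1071 against 816 to 1024. URA2, the first enzyme of the pathway, differed by -0.12 and URA5, orotate phosphoribosyltransferase, by -0.05 on the log2 scale. URA10, the minor orotate phosphoribosyltransferase, went the other way, reading 364 and 338 against 381 to 527 (difference 0.28 ± 0.10). URA3 lies outside the rule for named genes and was also chosen after its values were seen. URA3, orotidine phosphate decarboxylase, was bright and overlapped, at 6585 and 6421 against 6398 to 7067. After median centring of the arrays 6 members of the list were one-sided lower, when 11% of all genes were. Without homozygote 8 there were 9. Without that array limma called 5 genes of the list and 162 of the 5347 in all, and 16.2% of all genes were one-sided lower.

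**Figure D2:**
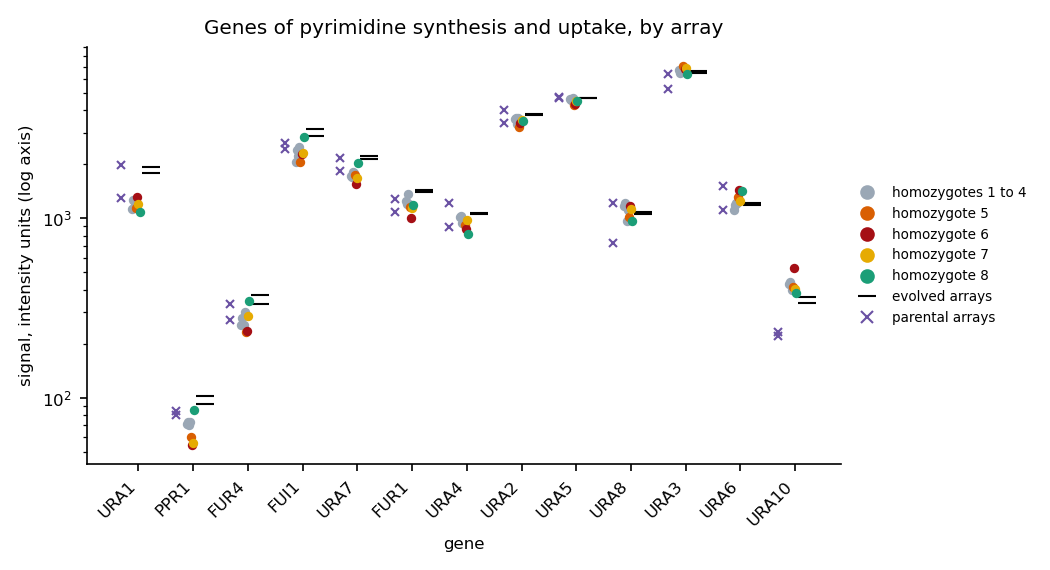
Signal of each of the 13 tested genes of pyrimidine synthesis and uptake on every array, on a log axis, in order of the log2 difference. The homozygotes of URA1 (1079 to 1322) sit below both evolved bars (1795 and 1926), while URA3 and URA8 overlap and URA10 lies above.

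Ribosome biogenesis had the lowest median of the 44 lists. Of 77 tested genes, 26 (33.8%) were one-sided lower and 0 one-sided higher, against 12.8% and 9.26% of all genes. The median log2 difference was -0.22, and 71 of the 77 differences were below 0. None was called, and 35 had an unadjusted p under 0.05, all of them lower. Of all 5347 genes 1176 (22%) had such a p, 665 of them lower. The strains differed widely, from a list median of -0.40 in homozygote 6 to 0.01 in homozygote 8. Without homozygote 8 the number of one-sided lower genes was 56, when 16.2% of all genes were one-sided lower, and limma called 12 of the list among 162 genes in all. With homozygotes 5 and 6 left out there were 26 one-sided lower genes, when 13.1% of all genes were one-sided lower. The list median was then -0.18.

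Among its members, DBP8, a putative RNA helicase, read 594 and 597 in the evolved arrays and 243 to 504 in homozygotes (median 383, log2 difference -0.66, adjusted p = 0.14). RRP9, a component of the U3 snoRNP that cleaves pre-rRNA, read 1384 and 1370 against 734 to 1237 (median 928, difference -0.56 ± 0.14, adjusted p = 0.0955). DHR2, a helicase of 18S rRNA synthesis, read 398 and 367 against 192 to 356 (median 257). These genes were named because they are one-sided. Homozygote 6 was the lowest and homozygote 8 the highest of the homozygotes in each.

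The 12 one-sided genes with the largest negative difference included REX4, BMT6, PUS1 and LOS1, which are described together here after their ranks were seen and form no list. REX4, a putative RNA exonuclease of rRNA processing, differed most: 261 and 297 in evolved arrays against 104 to 203 in homozygotes, a log2 difference of -0.85 ± 0.21 (adjusted p = 0.0979). BMT6, an rRNA methyltransferase, read 906 and 857 against 375 to 751 (difference -0.81 ± 0.21). PUS1, a pseudouridine synthase of tRNAs, read 1028 and 1211 against 507 to 896 (-0.73), and LOS1, which exports tRNA from the nucleus, 223 and 217 against 104 to 176 (-0.72). Homozygote 6 was the lowest in all 4 genes, and homozygote 8 was the highest in BMT6 and PUS1. The parental arrays read 269 and 234 for REX4, above all homozygotes, and 916 and 520 for BMT6, of which the second is within their range.

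The translation list also had more lower than higher one-sided genes, with a median nearer 0. Of 43 tested translation factor and tRNA synthetase genes, 11 (25.6%) were one-sided lower and 0 higher, against 12.8% and 9.26% of all genes. The median log2 difference was -0.07. FRS2 and FRS1 encode the subunits of phenylalanyl-tRNA synthetase. FRS2 read 1558 and 1603 in evolved arrays and 937 to 1333 in homozygotes, and FRS1 2408 and 2448 against 1694 to 2243. GCD1, a subunit of the exchange factor eIF2B, read 474 and 496 against 272 to 412. The number of one-sided lower genes was 17 without evolved array 1 and 17 without evolved array 2, when 18.8% and 18.1% of all genes were. One-sided higher genes then numbered 3 and 0, when 15.1% and 14.1% of all genes were. Of 127 cytosolic ribosomal protein genes 16 (12.6%) were one-sided lower and 2 (1.57%) higher, and the median was -0.02. The lower share is near the 12.8% of all genes, while the higher share is under their 9.26%.

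**Figure D3:**
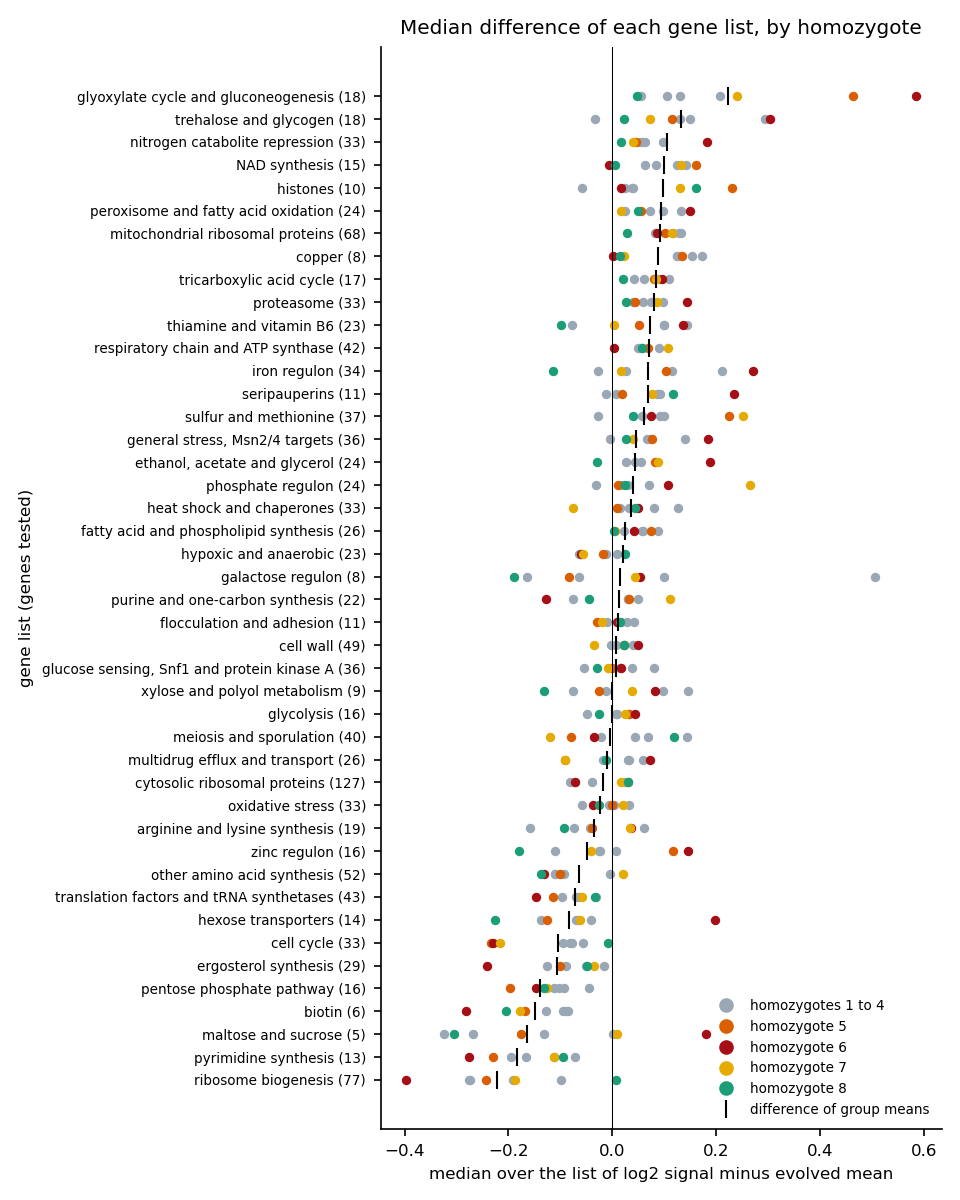
Median over each list of log2 signal minus the evolved mean, by homozygote (dots), with the median of the differences of group means (bar), for 44 lists with the number of genes tested in brackets. Ribosome biogenesis lies lowest, at -0.22, with homozygote 8 at 0.01 and homozygote 6 at -0.40; the glyoxylate list lies highest, at 0.22, with homozygote 6 at 0.59.

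In the sulfur and methionine list 13 of 37 tested genes were one-sided higher and 3 one-sided lower, where 9.26% and 12.8% of all genes were. The median of the list was 0.06, and 21 of its genes overlapped between the groups. None was called. STR3, the cystathionine beta-lyase that turns cystathionine towards methionine, had the largest difference of any one-sided gene. It read 310 and 317 in evolved arrays and 427 to 1847 in homozygotes (median 721), a 2.67-fold difference of means (log2 1.42 ± 0.46, adjusted p = 0.134). Homozygotes 5, 6 and 7 were at 1847, 1449 and 1363, and the other homozygotes between 427 and 844. The parental arrays lay lower than all of these, at 100 and 206.

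Transporters and regulators of the same pathway followed. YCT1, the cysteine transporter, read 520 and 463 in evolved arrays and 547 to 1205 in homozygotes (median 926, log2 difference 0.83 ± 0.27), against 108 and 267 in parental arrays. MUP3, a low-affinity methionine permease, read 85.4 and 76.5 against 90.9 to 200 (0.81 ± 0.22). MET28, which joins Met4 on its promoters, read 379 and 350 against 487 to 828 (0.79 ± 0.17, adjusted p = 0.0955). MET32, a DNA-binding partner of Met4 named here because its values were seen, read 216 and 197 against 240 to 472 (0.69 ± 0.21). Homozygote 8 was the lowest of the homozygotes in MUP3 and MET28, and homozygote 2 in YCT1 and MET32. Among one-sided genes of the list STR3 had the widest gap, at 1.35-fold.

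The one-sided lower members of this list were HOM3, CYS3 and MET7, named outside the rule because they are the whole of that count. HOM3, the aspartate kinase that leads to threonine and methionine, read 1091 and 1146 in evolved arrays and 652 to 952 in homozygotes (log2 difference -0.48 ± 0.12). CYS3, which makes cysteine from cystathionine, differed by -0.15 and MET7, which adds glutamates to folates, by -0.38. With homozygotes 5, 6 and 7 left out, 13 genes were one-sided higher and 8 lower, when 12.2% and 14.4% of all genes were, and the list median was 0.02. Without homozygote 8 limma called 2 of the 37 genes of the list, when it called 162 of all 5347 genes. Without evolved array 1 the median was 0.12.

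**Figure D4:**
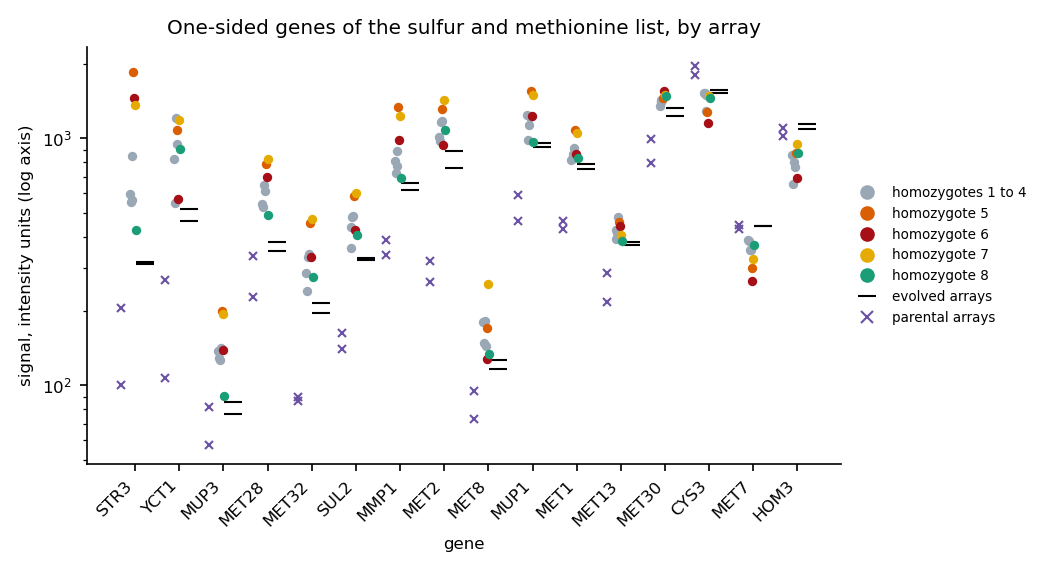
Signal on every array, on a log axis, of the 16 one-sided genes of the sulfur and methionine list, in order of the log2 difference. In STR3 the homozygotes run from 427 to 1847 above evolved bars near 310, and the parental crosses lie at 100 and 206; HOM3, MET7 and CYS3 at the right lie below the evolved bars.

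Genes for the use of non-fermentable carbon had the highest list median. In the glyoxylate cycle and gluconeogenesis list, 16 of 18 tested genes had a difference above 0, the median was 0.22, and 3 were one-sided higher. That share is 16.7%, against 9.26% of all genes, and none was called. The median was 0.59 in homozygote 6 and 0.46 in homozygote 5 but 0.05 in homozygote 8. It was 0.12 without homozygotes 5, 6 and 7. The one-sided count was 6 without evolved array 1 and 7 without evolved array 2, when 15.1% and 14.1% of all genes were one-sided higher.

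ADY2, an acetate transporter, read 117 and 143 in evolved arrays and 176 to 637 in homozygotes (median 249), a log2 difference of 1.28 ± 0.47 (adjusted p = 0.157). Homozygotes 5, 6 and 7 were at 605, 637 and 554, and no other homozygote exceeded 287. The parental arrays, at 416 and 382, lay between these sets. CAT8, the activator of gluconeogenic genes, read 234 and 238 against 271 to 439 (0.50 ± 0.14, adjusted p = 0.114). YGR067C, an uncharacterised zinc-finger gene, read 29.2 and 28.8 against 41.2 to 152 (1.15 ± 0.44), with homozygotes 6, 5 and 7 again highest. Its evolved signals are near the background of 18.7 to 19.6. RGI1, which is linked to energy metabolism under respiratory conditions, read 2097 and 2002 against 2359 to 5178 (0.71 ± 0.23).

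The lists of mitochondrial ribosomal and respiratory chain genes had medians just above 0 in each homozygote. Of 68 tested mitochondrial ribosomal protein genes 23 (33.8%) were one-sided higher and 0 lower, against 9.26% and 12.8% of all genes, with a median log2 difference of 0.09 and homozygote medians of 0.03 to 0.13. MRPS9, of the small subunit, read 1248 on both evolved arrays and 1439 to 1681 in homozygotes (0.30 ± 0.06, adjusted p = 0.0955). Of 42 respiratory chain and ATP synthase genes 11 (26.2%) were one-sided higher and 0 lower, against the same 9.26% and 12.8%, with a median of 0.07. COX5B, an alternative subunit of cytochrome oxidase, read 651 and 677 against 714 to 908. QCR8, of the cytochrome bc1 complex, read 3930 and 3931 against 4189 to 5037. Without evolved array 1 the respiratory count was 19, when 15.1% of all genes were one-sided higher. Of 17 genes of the tricarboxylic acid cycle 6 (35.3%) were one-sided higher, against 9.26% of all genes, and 0 lower (median 0.09). After quantile normalization 3 were, against 9.93% of all genes. PYC1, pyruvate carboxylase, read 2460 and 2314 against 2482 to 4094.

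The proteasome list had 9 of 33 genes (27.3%) one-sided higher, against 9.26% of all genes, and 0 lower, with a median of 0.08. RPN8, a subunit of its regulatory particle, read 2121 and 1924 in evolved arrays and 2204 to 2537 in homozygotes. The count was 15 after median centring and 15 without evolved array 2, settings in which 11% and 14.1% of all genes were one-sided higher. Of 36 general stress genes controlled by Msn2 and Msn4, 9 (25%) were one-sided higher, against 9.26% of all genes, and 0 lower (median 0.05). TMA10 read 2805 and 2720 against 3233 to 5597, with homozygotes 5 and 6 highest.

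Genes next to the entry and use of xylose were measured for the same arrays, since the cultures grew on that sugar. Xylose reaches the pentose phosphate pathway as xylulose 5-phosphate after phosphorylation by xylulokinase, XKS1. XKS1 read 3377 and 3395 in evolved arrays and 2951 to 4130 in homozygotes (median 3703). The groups overlapped, with a log2 difference of 0.08 and a 95% interval of -0.16 to 0.32. With a replicate block, a limma fit that called 537 genes, the difference of XKS1 was 0.172 (adjusted p = 0.0307). GRE3, an aldose reductase that also reduces xylose, differed by -0.09 (-0.31 to 0.12), and its sign turned in a fit with a replicate block (0.109). Of 9 tested genes of xylose and polyol metabolism 1 (11.1%) was one-sided higher and 0 lower, near the 9.26% of all genes that were higher. This was YJR096W, a putative reductase, at 1129 and 1132 against 1230 to 1768.

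In the pentose phosphate pathway 15 of 16 tested genes had a difference below 0, with a median of -0.14 and 4 one-sided lower genes (25%, against 12.8% of all genes). The median of the list was below 0 in each homozygote, from -0.20 to -0.04. TKL1, the main transketolase, read 5577 and 5672 in evolved arrays and 4607 to 5253 in homozygotes, a log2 difference of -0.20 ± 0.05 (adjusted p = 0.0955). PRS5, a synthase of phosphoribosyl pyrophosphate, the ribose donor for nucleotides, read 1545 and 1582 against 1251 to 1380 (-0.24 ± 0.06), and PRS1 2449 and 2456 against 1940 to 2367. TAL1, transaldolase, overlapped with a difference of -0.05 (95% interval -0.12 to 0.02). ZWF1, glucose 6-phosphate dehydrogenase, differed by -0.07 (-0.23 to 0.09) and GND1, 6-phosphogluconate dehydrogenase, by -0.16 (-0.33 to 0.01). The one-sided count of the list was 7 without evolved array 1, when 18.8% of all genes were one-sided lower. Without homozygote 8 limma called 2 of the 16 genes of the list, when it called 162 of all 5347 genes.

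Among 14 tested hexose transporter and sensor genes HXT4 had the largest difference. HXT4, a high-affinity glucose carrier, read 2259 and 2248 in evolved arrays and 892 to 1810 in homozygotes (median 1311). This is a 1.80-fold lower mean, a log2 difference of -0.85 ± 0.22 (adjusted p = 0.0985). Homozygotes 2 and 1 were lowest, at 892 and 929, and homozygote 6 was highest. The other tested members overlapped except GAL2, which read 96.8 and 96.3 against 103 to 179. One-sided members of the list were thus 7.14% lower and 7.14% higher, against 12.8% and 9.26% of all genes. In other lists, HXK2, hexokinase 2, was one-sided lower, at 2160 and 2067 against 1250 to 1711 (-0.45 ± 0.11, adjusted p = 0.0985). MIG2, a glucose repressor, was too, at 58.0 and 64.7 against 26.8 to 56.3 (-0.78 ± 0.24). Their lists did not lean lower. Of 16 glycolysis genes 1 was one-sided lower and 1 higher (6.25% each, median 0). Of 36 genes of glucose sensing, Snf1 and protein kinase A, 4 (11.1%) were lower and 6 (16.7%) higher. The parental arrays were above both groups in HXK2 (2560 and 3492) and MIG2 (114 and 87.1).

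Some of the widest gaps belonged to genes outside the lists described so far. DIP5, a permease for glutamate and aspartate, had the widest: 198 and 228 in evolved arrays against 327 to 637 in homozygotes, a gap of 1.43-fold and a log2 difference of 1.09 ± 0.20 (adjusted p = 0.0951). YHK8, a presumed drug transporter, was next, at 146 and 145 against 74.4 to 102, a gap of 1.42-fold and a difference of -0.74 ± 0.12 (adjusted p = 0.093). GTT2, a glutathione transferase, read 137 and 138 against 180 to 240 (0.59 ± 0.11). FOB1, which binds the replication fork barrier of the rDNA, read 197 and 201 against 114 to 156 (-0.55 ± 0.10), and HAA1, an activator of the response to weak acids, 485 and 503 against 292 to 385 (-0.56). ATG41, a factor of autophagy, read 1499 and 1242 against 1934 to 3928, a 2-fold difference of means (adjusted p = 0.0955), with parental arrays at 2468 and 1251.

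The remaining genes of the 12 largest differences in each direction were YFL065C, YLR177W and RTC2 on the higher side. On the lower side they were NRP1, YBR238C, PCL1, YEH1 and VTS1. YFL065C came from a probe set shared with related subtelomeric genes and lay near background, at 31.0 and 21.1 against 35.3 to 64.8, so the gene itself is uncertain. RTC2, a vacuolar amino acid transporter, read 220 and 225 against 245 to 599. PCL1, a G1 cyclin of the kinase Pho85, read 225 and 246 against 106 to 219. YEH1, a steryl ester hydrolase, read 677 and 683 against 315 to 594.

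The position of the homozygotes within these differences was uneven. Among the 12 largest positive differences homozygote 6 was farthest from the evolved arrays in 6, and homozygote 8 was nearest in 6. Among the 12 largest negative differences homozygote 6 was farthest in 8 and homozygote 8 nearest in 7. Over all 1178 one-sided genes homozygote 6 was farthest in 553 and homozygote 8 nearest in 392.

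**Figure D5:**
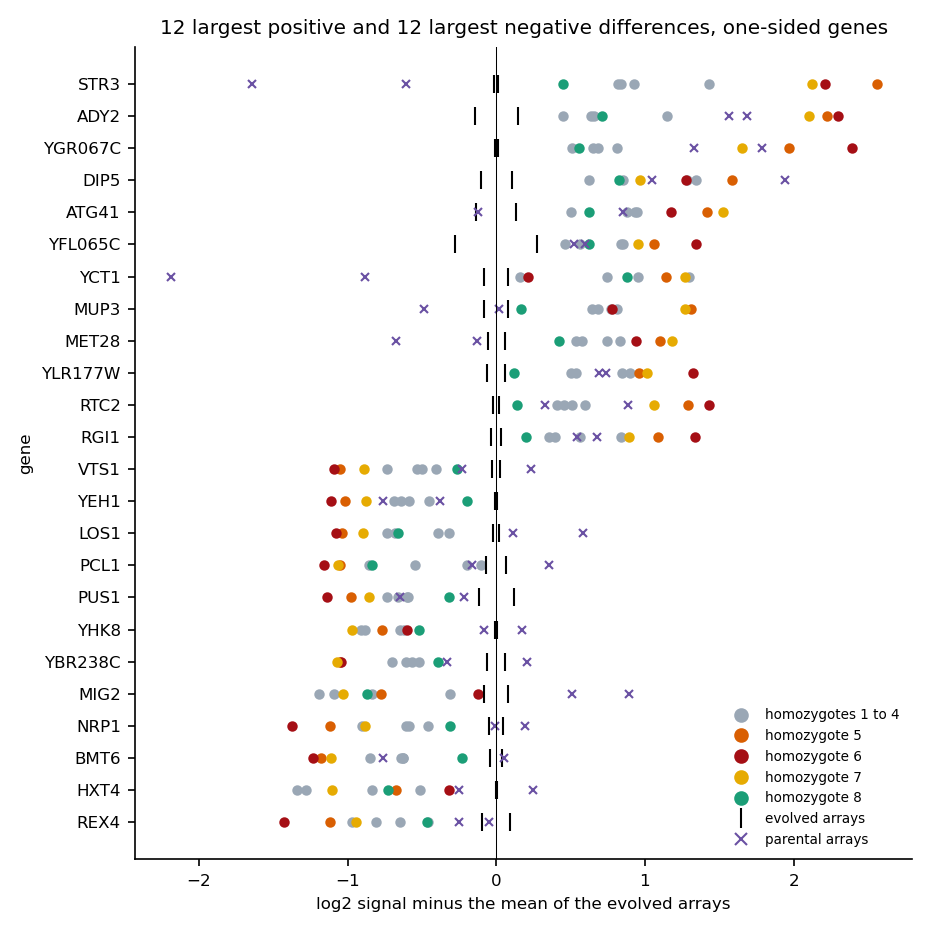
Log2 signal minus the mean of the evolved arrays for the 12 one-sided genes with the largest positive and the 12 with the largest negative difference, by array. Homozygotes 5, 6 and 7 lie farthest out for STR3, ADY2 and YGR067C, homozygote 8 lies nearest to the evolved bars in 13 of the 24 genes, and the parental crosses fall on either side.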

How the data were processed

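The members and gene lists were chosen with earlier results of these data known. The values used are the probe set signals deposited by the authors, in linear intensity units. MAS5 is the one tool named, per the submitters' processing notes, without its role or version. The scaling between arrays and the genome build are not given in the sources used here. Signals were log2 transformed without further normalization. Gene names came from the platform annotation, updated with the R64 gene table. A gene-specific probe set was preferred to a shared one, then the brightest (47 genes had several). Background was the 90th percentile of the S. pombe probe sets of an array. No detection calls were used here.

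Groups came from the sample titles. The main fit was limma 3.58.1 in R 4.3.3 on the 10 arrays, with 1 mean per group, a variance trend, two-sided tests and Benjamini-Hochberg adjustment over 5347 genes at 0.05. The parental arrays were left out of this fit because they vary more between themselves, with a median absolute log2 difference of 0.221 and 102 genes at least 2-fold apart. The code was tested on simulated data. The ± sign gives an SD for signals and an SE for log2 differences, and intervals are 95% and unadjusted. The small number of arrays limits the precision.

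Named genes are those called, the 12 largest differences in each direction and the 5 widest gaps in each direction among one-sided genes, up to 3 one-sided members of each list, 6 genes of xylose metabolism and the genes at the edge of the rule. The one-sided pyrimidine genes, MET32, HOM3, CYS3, MET7, URA3, URA8, SAG1, TEC1, STE12 and STE20 were added after their values were seen. Ranking used signals raised to the background level where they fell under it. The alternatives covered scaling, background, probe sets, spread and each array left out. The numbers shared by evolved arrays and homozygotes pair nothing in the labels.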

Additional observations from a re-analysis of the deposited data

Results flagged for a closer look

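Of 148 groups of 8 homozygotes examined, 6 held 1 signal far from the others by Dixon's ratio. The measure marks about 5 percent of groups by chance, so this number is no more than chance gives. GAL2, a galactose permease, was at 179.4 in homozygote 1 and at 103 to 128 in the others. YJR096W was at 1768.2 in homozygote 6, against 1230 to 1451 in the others, and URA10 at 526.7 in homozygote 6, against 381 to 443. ASP1, an asparaginase, was low in homozygote 6, at 422, against 521 to 591. OPI1, a repressor of phospholipid synthesis genes, was low in homozygote 8, at 767.2, against 940 to 1110. ARG2, of arginine synthesis, was low in homozygote 3, at 89.4, against 104 to 112.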

How the results depend on the processing

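The number of genes called by limma depended on how the evolved arrays were treated. It was 1 with the 10 arrays, 0 with the evolved arrays averaged as 1 sample (368 at an unadjusted p under 0.05) and 0 with all 12 arrays in the fit (929 at an unadjusted p under 0.05). With array weights it was 1563. With evolved and homozygote arrays of the same number as a replicate block it was 537, a fit in which only 4 arrays inform the difference. The homozygote numbers name strains and pair nothing in the labels. Deviations of same-numbered arrays correlated by -0.056 and 0.024. These values come from 2 pairs of arrays and cannot show whether same-numbered arrays share more than a number. Leaving out 1 array gave 0 to 162 calls: 0 without evolved array 1 or 2 (515 and 421 at an unadjusted p under 0.05), 162 without homozygote 8 and 2 without homozygote 1. The cause was not tested. One-sided genes numbered 508 to 807 (higher) and 686 to 1003 (lower) with 1 array left out, which the smaller number of arrays raises by construction. A difference of at least 1.5-fold left 20 higher and 31 lower, and a gap of at least 1.2-fold 12 and 16. Median centring gave 587 higher and 587 lower; here lower genes no longer outnumbered higher ones. Without homozygotes 5 and 6, left out after the data were seen, 1 gene was called and 1236 were one-sided, and without homozygotes 5, 6 and 7, 1 and 1422. URA1 kept its direction in all 23 alternatives and its call in 19 (adjusted p from 1.74e-05 to 0.0211). Of the named genes, GRE3, not called in any setting, turned to 0.109 with the replicate block. SAG1, at 0.0111, turned to -0.0003 after quantile normalization and to -0.0107 without homozygote 2.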

Other observations

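Several lists not described above leaned one way without a call. Of 33 cell cycle genes 8 (24.2%) were one-sided lower and 0 higher, against 12.8% and 9.26% of all genes, with a median log2 difference of -0.10. CDC6, which loads the replicative helicase, read 301 and 320 in evolved arrays and 148 to 287 in homozygotes, and CLN1, a G1 cyclin, 855 and 909 against 569 to 830. Of 29 ergosterol genes 7 (24.1%) were one-sided lower and 0 higher (median -0.11), a count of 12 without evolved array 2, when 18.1% of all genes were one-sided lower. Among the 7 was ERG5, at 2623 and 2693 against 1426 to 2472. In the synthesis of other amino acids 14 of 52 genes (26.9%) were one-sided lower and 2 (3.85%) higher, against 12.8% and 9.26% of all genes. HIS1, the first enzyme of histidine synthesis, read 607 and 620 against 407 to 558. LEU1, of leucine synthesis, was one of the higher ones, at 1136 and 1068 against 1157 to 1907.

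One-sided genes were spread over all 16 chromosomes, at 16% to 26.1% of the genes tested on each. On chromosome VI 22 of 115 genes (19.1%) were one-sided higher and 8 (6.96%) lower. On chromosome XI 43 of 287 (15%) were higher and 22 (7.67%) lower. On chromosome XV 32 of 501 (6.39%) were higher and 73 (14.6%) lower. Over all genes tested these shares were 9.26% and 12.8%. The median log2 difference of a chromosome was small in each case, from -0.04 on chromosome XV to 0.04 on chromosome VI. Chromosome I, with 3 higher (3.7%) and 10 lower (12.3%) genes of 81, had a median of 0.02.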
